A study of Arabidopsis thaliana with 6 samples.

Results

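The core of indole glucosinolate biosynthesis is the set of enzymes that turns tryptophan into indol-3-ylmethyl glucosinolate. Its 10 genes, described here in pathway order, were picked by gene identifier as CYP79B2, CYP79B3, CYP83B1, GSTF9, GSTF10, GSTU13, GGP1, SUR1, UGT74B1 and SOT16, and all 10 were among the 20754 genes of the table. Transcripts were measured in rosette leaves of *Arabidopsis thaliana* from 3 libraries of *fer* and 3 libraries of wild type (WT). According to the study's text, *fer* is *fer-4*, an insertion mutant without functional FERONIA (FER), a receptor kinase of the plasma membrane, in the Columbia-0 background, and WT is Columbia-0. No other mutation and no treatment was listed for either genotype, and only this 1 mutant line was sequenced. Per the labels, the plants were 4 weeks old, after 10 days on plates in constant light and 21 days on soil at 22 °C with 8 hours of light a day. The study's text names long days instead, and the files do not settle this difference. Its slightly older age is close to the summed days on plates and soil in the labels. The comparison asked how the transcripts of each step differ in leaves that lack FER.

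Glucosinolates are sulfur-rich thioglucosides of the Brassicales that are kept apart from myrosinases in intact tissue and yield toxic products once a leaf is crushed. The indole branch starts from tryptophan. The cytochromes P450 CYP79B2 and CYP79B3 make indole-3-acetaldoxime, which also feeds camalexin and, by a side route, auxin. CYP83B1 commits it to glucosinolates by oxidation, a glutathione S-transferase adds glutathione, and the peptidase GGP1 removes the glutamyl residue. The C-S lyase SUR1 frees the thiohydroximate, the glucosyltransferase UGT74B1 adds glucose and the sulfotransferase SOT16 adds sulfate. GGP1 and SUR1 also serve the aliphatic branch, which starts from methionine and has further enzymes of its own for the same chemistry. The other enzymes, UGT74B1 among them, are listed here by a main branch. Whether they act in that branch only was not tested.

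The values are normalized reads from QuantSeq, which sequences a single fragment from the 3′ end of a polyadenylated RNA, so that levels of different genes can be set side by side without a correction for length. All 6 libraries summed to about the same size, 4523902 to 4526129 normalized reads. FER (AT3G51550), examined first because it checks the labels, had 5.95, 6.63 and 10.3 normalized reads in the *fer* libraries and 264.6, 265.5 and 286.4 in the WT libraries, so each library fitted its label. Genotypes were compared in limma, a linear model of log2(value + 1) for each gene, and a called gene is one whose p, adjusted over all 20754 genes, was under 0.05. Of the leaf marker genes fixed for this comparison, 5 of 5 were called lower in *fer*, and their summed level was 108990 to 118470 normalized reads in *fer* and 145590 to 149620 in WT. Markers of guard and myrosin cells had 0 of 4 called, with sums of 2145 to 2951 in *fer* and 2780 to 3077 in WT. Epidermal markers, with 1 of 3 called lower, summed to 1229 to 1371 in *fer* and 1516 to 1583 in WT. Phloem markers, with 1 of 3 called lower, summed to 811 to 849 in *fer* and 892 to 944 in WT. Root markers, with 0 of 2 called, summed to 3.14 to 9.71 in *fer* and 0.0043 to 1.55 in WT, and flower markers, with 1 of 3 called lower, to 2.25 to 7.29 in *fer* and 4.78 to 5.75 in WT, while COBL9, PLT1, AP3 and SEP1 were not in the table. Leaf markers were thus abundant in every library and root and flower markers were near 0. The part of these shifts in the values below was not tested, and in whole leaves fewer cells of a type and less RNA per cell cannot be told apart.

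Transcripts of 7 of the 10 core genes were increased in *fer* and those of 0 were decreased by this test, beside 14.6% of all genes called in either direction, 10.0% called higher and 4.52% called lower in *fer*. The increases were largest at the entry of the pathway, at 3.65-fold for CYP79B2 and 3.24-fold for CYP79B3 (ratios of mean normalized reads), and were 2.31-fold for CYP83B1 and 2.11-fold for GGP1. GSTF10, GSTF9 and SOT16 were 1.60-fold, 1.46-fold and 1.41-fold higher in *fer*. GSTU13, SUR1 and UGT74B1 were not called. The core genes are highly expressed, and among the 2046 genes with a mean at least as high as that of the lowest core gene, 39.2% were called and 17.9% were called higher. Every *fer* library was above every WT library for the same 7 genes, a pattern found in 20.8% of all genes, and the reverse pattern, found in 10.5%, occurred in 0 of the 10. The median log2 fold change of the 10 genes was 0.62, beside 0.10 for all genes. A log2 fold change of at least 1 with a call was reached by 4 core genes and by 981 genes of the table, or 4.73%. For each of the 7 genes an exact permutation test of its own 6 values gave p = 0.1, two-sided, the smallest that 3 against 3 libraries allow.

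**Figure D1:**
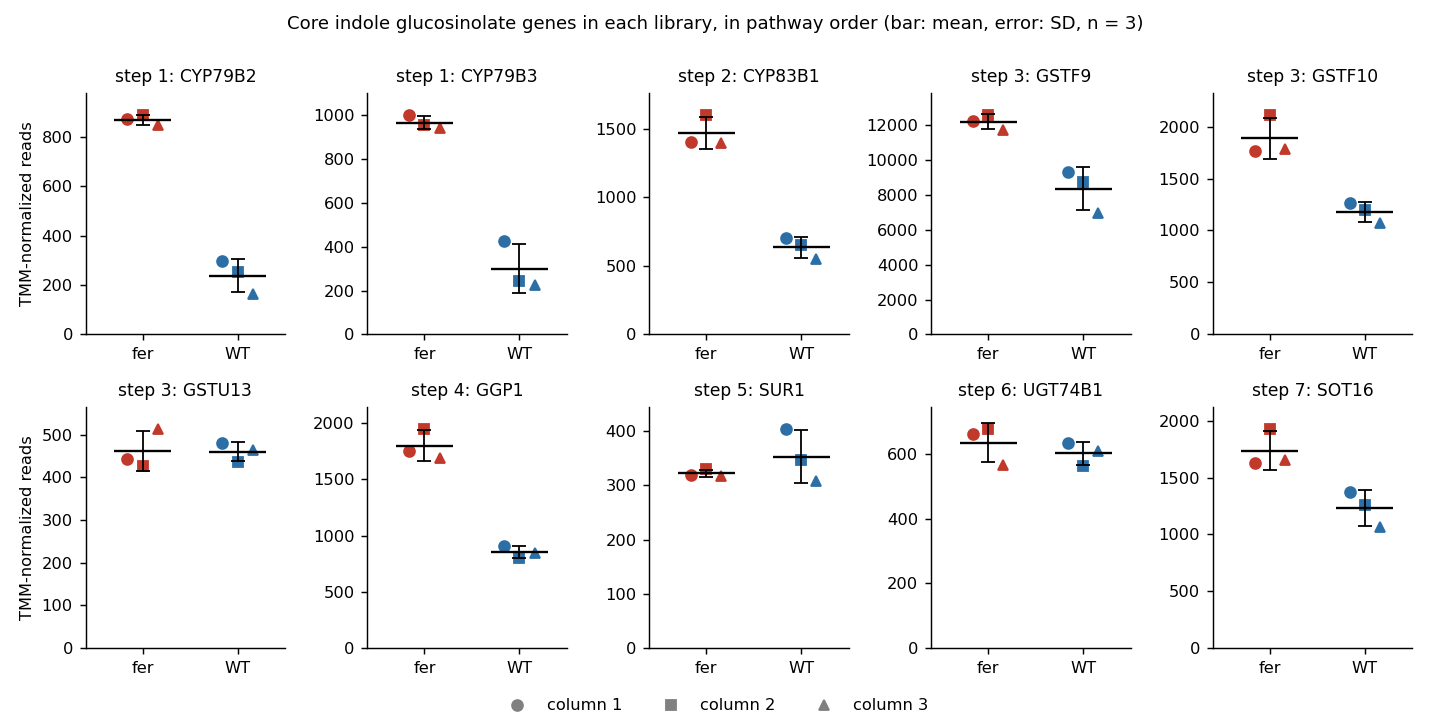
Normalized reads of the 10 core genes in the 3 *fer* and 3 WT libraries, 1 panel per gene in pathway order, each with its own axis from 0. Points are libraries, horizontal bars are means and error bars are SD (n = 3), and the points of GSTU13, SUR1 and UGT74B1 overlap between genotypes whereas those of the other 7 genes do not.

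Step 1 is catalysed by CYP79B2 and CYP79B3, closely related P450s that convert tryptophan to indole-3-acetaldoxime. CYP79B2 (AT4G39950, chr4:18525042-18527602, plus strand of TAIR10.1, 3 exons) had 874.1, 889.6 and 849.2 normalized reads in *fer*, against 298.6, 252.5 and 164.3 in WT. The *fer* libraries lay close together and far above WT, where the libraries were spread: the SD of log2 values was 0.034 in *fer* and 0.44 in WT. Mean levels were 871 ± 20.4 in *fer* and 238.5 ± 68.2 in WT (SD, n = 3 each), and the log2 fold change was 1.91 ± 0.15 (SE, adjusted p = 2.2e-08 in limma). Here and below, the SE of a log2 fold change uses a variance drawn towards that of genes at a similar level. It therefore does not rest on the spread of these libraries alone, unlike the SE of a difference between log2 ratios. CYP79B3 (AT2G22330, chr2:9488413-9491404, plus strand, 2 exons) had 1000.0, 953.1 and 941.9 normalized reads in *fer*, against 426.7, 242.5 and 225.5 in WT. Its lowest *fer* library was above its highest WT library, and WT column 1 stood above the other two. Its means were 965 ± 30.8 in *fer* and 298 ± 112 in WT (SD, n = 3 each), with a log2 fold change of 1.75 ± 0.16 (SE, adjusted p = 2.1e-07 in limma).

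The difference between the changes of these genes was within the spread between libraries. Their log2 ratio, CYP79B2 over CYP79B3, was -0.15 in *fer* and -0.30 in WT, a difference of 0.16 ± 0.18 (SE) with p = 0.4 in a two-sided exact permutation test over the libraries. It was 0.050 without WT column 1, 0.080 without WT column 3 and 0.34 without WT column 2. CYP79B2 held 47.4% ± 0.82 of the reads of step 1 in *fer* and 44.8% ± 5.42 in WT (SD, n = 3 each). Together they had 1874, 1843 and 1791 normalized reads in *fer* and 725, 495 and 390 in WT, which is 3.42-fold more in *fer* on average. The coding sequences share 80.5% of their bases, but the last 300 bases of the transcripts, where QuantSeq reads lie, share 47.7%, and 0 of 451 windows of 50 bases in the last 500 bases of either transcript occur elsewhere in the genome.

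The upstream sequences of these 2 genes are shown because their transcripts moved together and because their windows hold a stretch in common. Each line gives the 300 bases before the annotated start of the gene, 5′ to 3′ on the strand of the gene, read from the RefSeq copy of the TAIR10.1 genome, and capitals mark a pair of runs that are identical between the genes.
CYP79B2, chr4:18524742-18525041, plus strand: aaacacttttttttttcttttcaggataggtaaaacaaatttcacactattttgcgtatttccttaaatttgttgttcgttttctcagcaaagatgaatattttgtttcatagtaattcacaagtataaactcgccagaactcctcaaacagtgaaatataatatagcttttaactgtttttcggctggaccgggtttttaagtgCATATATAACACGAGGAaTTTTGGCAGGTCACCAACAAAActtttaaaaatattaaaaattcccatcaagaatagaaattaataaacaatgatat
CYP79B3, chr2:9488113-9488412, plus strand: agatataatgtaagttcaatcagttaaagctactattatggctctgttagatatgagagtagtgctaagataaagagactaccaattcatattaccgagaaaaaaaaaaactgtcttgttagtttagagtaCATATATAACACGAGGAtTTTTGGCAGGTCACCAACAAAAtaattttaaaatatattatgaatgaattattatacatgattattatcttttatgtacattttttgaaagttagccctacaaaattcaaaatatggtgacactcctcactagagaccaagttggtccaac
The runs are 17 and 22 bases long and are set apart by a single differing base in lower case. They begin 95 and 77 bases before the start of CYP79B2 and 169 and 151 bases before that of CYP79B3. Each run occurs in 2 of the 19933 windows of this length upstream of protein-coding genes of the table, those of CYP79B2 and CYP79B3. Other genes were not searched. This describes the sequence only, and no binding was measured.

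Step 2 is carried out by CYP83B1, the P450 that draws indole-3-acetaldoxime into glucosinolates. CYP83B1 (AT4G31500, chr4:15273410-15275404, minus strand, 2 exons) had 1406, 1602 and 1398 normalized reads in *fer*, against 702, 654 and 553 in WT. The genotypes were well apart, with every *fer* library above every WT library. The log2 fold change was 1.21 ± 0.095 (SE, adjusted p = 2.4e-08 in limma).

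Step 3, the addition of glutathione, has been assigned to GSTF9, GSTF10 and GSTU13, which differ widely in level. GSTF9 (AT2G30860, chr2:13138882-13140392, plus strand, 3 exons) had 12238, 12567 and 11714 normalized reads in *fer*, against 9316, 8748 and 6960 in WT. It was the most abundant of the 10 transcripts in both genotypes, and its genotypes did not overlap. The log2 fold change was 0.56 ± 0.090 (SE, adjusted p = 0.00021 in limma). GSTF10 (AT2G30870, chr2:13141290-13142676, plus strand, 3 exons) begins 897 bases after the end of GSTF9 and encodes its closest relative in this set, with 77.6% identical coding bases. It had 1768, 2112 and 1781 normalized reads in *fer*, against 1267, 1194 and 1076 in WT, again without overlap. The log2 fold change was 0.68 ± 0.088 (SE, adjusted p = 1.9e-05 in limma). Its 3′ end overlaps SWAP70 (AT2G30880), on the opposite strand, by 12 bases, and whether the counting used strand is not given in the sources used here. SWAP70 averaged 89.3 ± 13.0 normalized reads in *fer* and 70.1 ± 3.67 in WT (SD, n = 3 each), far below GSTF10.

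GSTU13, of another class of glutathione S-transferases, was the gene of step 3 that was not called. GSTU13 (AT1G27130, chr1:9425280-9426897, plus strand, 2 exons) had 443, 427 and 514 normalized reads in *fer*, against 481, 437 and 463 in WT. The libraries of both genotypes were mixed, and the 95% interval of its log2 fold change ran from -0.20 to 0.20. The log2 ratio of GSTF9 over GSTU13 was 4.72 in *fer* and 4.17 in WT, a difference of 0.56 ± 0.17 (SE) without overlap between the genotypes and with p = 0.1 in the exact permutation test. That of GSTF9 over GSTF10 was 2.69 in *fer* and 2.81 in WT, with overlapping libraries and p = 0.3 in the same exact test. GSTF9 held 83.8% ± 0.78 of the reads of step 3 in *fer* and 83.5% ± 1.36 in WT, GSTF10 held 13.0% ± 0.90 in *fer* and 11.9% ± 0.68 in WT, and GSTU13 held 3.19% ± 0.44 in *fer* and 4.67% ± 0.68 in WT (SD, n = 3 each).

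Step 4 belongs to GGP1, the γ-glutamyl peptidase that trims the glutathione conjugate in both branches. GGP1 (AT4G30530, chr4:14920376-14922519, plus strand, 3 exons) had 1757, 1952 and 1688 normalized reads in *fer*, against 911, 800 and 849 in WT. It was close to CYP83B1 in the size of its change and had little spread in either genotype. The log2 fold change was 1.07 ± 0.083 (SE, adjusted p = 2.1e-08 in limma).

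Steps 5 and 6 were the steps without a called gene. SUR1 (AT2G20610, chr2:8877887-8880440, minus strand, 7 exons), the C-S lyase that also acts in the aliphatic branch, had 320, 330 and 317 normalized reads in *fer*, against 405, 347 and 308 in WT. The *fer* values lay inside the WT range, and the log2 fold change was -0.12 ± 0.11 (SE, adjusted p = 0.51 in limma), with a 95% interval of -0.35 to 0.10. It was -0.021 without WT column 1, -0.22 without WT column 3 and -0.23 with rescaling by median of ratios. UGT74B1 (AT1G24100, chr1:8525334-8527087, minus strand, 2 exons), the glucosyltransferase, had 661, 679 and 567 normalized reads in *fer*, against 633, 563 and 609 in WT. Its libraries overlapped as well, and the log2 fold change was 0.08 ± 0.094 (SE, adjusted p = 0.66 in limma), with a 95% interval of -0.12 to 0.27. Leaving out a library gave 0.026 to 0.16, and rescaling turned its sign, to -0.027 with median of ratios and -0.011 with quantile normalization. The upper bounds of both intervals, and that of GSTU13, were below the lower bounds of all 7 called genes, and these intervals leave room for small changes in either direction.

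Step 7, the transfer of sulfate onto the desulfoglucosinolate, is the work of SOT16. SOT16 (AT1G74100, chr1:27864345-27865694, minus strand, 1 exon) had 1628, 1931 and 1657 normalized reads in *fer*, against 1378, 1261 and 1062 in WT. This was the smallest of the called increases, still with every *fer* library above every WT library. The log2 fold change was 0.50 ± 0.096 (SE, adjusted p = 0.0012 in limma). SOT16 was not called by limma without a trend of variance on mean, at an adjusted p of 0.13, and neither were GSTF9 and GSTF10, at 0.099 and 0.052. CYP79B2, CYP79B3, CYP83B1 and GGP1 remained called there, at adjusted p-values of 0.014, 0.022, 0.013 and 0.012 in limma.

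**Figure D2:**
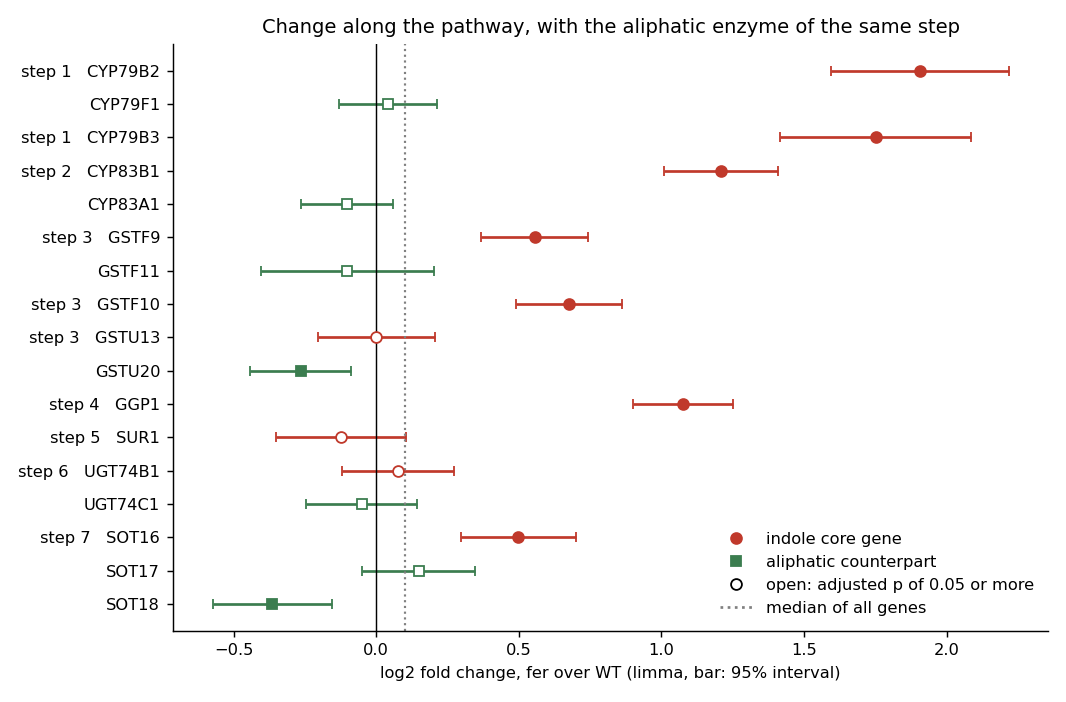
Log2 fold change of *fer* over WT from limma for the 10 core genes (circles, in pathway order) and for the aliphatic enzymes of the same steps (squares), with 95% intervals as bars. Filled symbols had an adjusted p under 0.05 and the dotted line is the median of all genes at 0.10, with CYP79B2 at 1.91, SOT16 at 0.50 and the aliphatic enzymes between -0.36 and 0.15.

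The order of transcript levels along the pathway differed between the genotypes mainly through step 1. In *fer* the mean levels ran, from high to low, GSTF9, GSTF10, GGP1, SOT16, CYP83B1, CYP79B3, CYP79B2, UGT74B1, GSTU13 and SUR1. The ranges of GSTF10 and GGP1 overlapped, as did those of GGP1 and SOT16, while the other neighbours in this order did not. In WT the order was GSTF9, SOT16, GSTF10, GGP1, CYP83B1, UGT74B1, GSTU13, SUR1, CYP79B3 and CYP79B2, with overlap between SOT16 and GSTF10, CYP83B1 and UGT74B1, SUR1 and CYP79B3, and CYP79B3 and CYP79B2. CYP79B3 and CYP79B2 thus held the lowest means of the 10 in WT and stood above UGT74B1, GSTU13 and SUR1 in every *fer* library. All 10 genes together had 22095, 23441 and 21428 normalized reads in *fer*, against 15819, 14499 and 12270 in WT. This was 0.493% ± 0.0227 of all normalized reads in *fer* and 0.314% ± 0.0396 in WT (SD, n = 3 each), and GSTF9 made up the largest share of it.

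All 10 core genes had the same highest WT library, while the lowest WT library differed between them. WT column 1 was the highest WT library for 10 of the 10 core genes, against 36.3% of all genes and 33.3% of the 2046 genes at their level. WT column 3 was the lowest for 7 of them, against 36.9% of all genes, and WT column 2 for the other 3, against 32.1% of all genes. Among the aliphatic core enzymes WT column 1 was also the highest for 8 of 8, among the tryptophan synthesis genes for 7 of 11 and among the genes of cosubstrate supply for 4 of 4. It was the highest for 2 of 3 camalexin genes and 2 of 2 transporters, but only for 3 of 9 side-chain modification genes and 1 of 6 regulators, so the pattern did not run through every list. In *fer*, column 2 was the highest library for 8 of the 10 core genes, and the share over all genes was not computed for it. The 7 calls remained when any 1 of the 6 libraries was left out. Without WT column 1 the log2 fold changes of CYP79B2 and CYP79B3 were 2.09 and 2.04, and without WT column 3 they were 1.66 and 1.58.

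**Figure D3:**
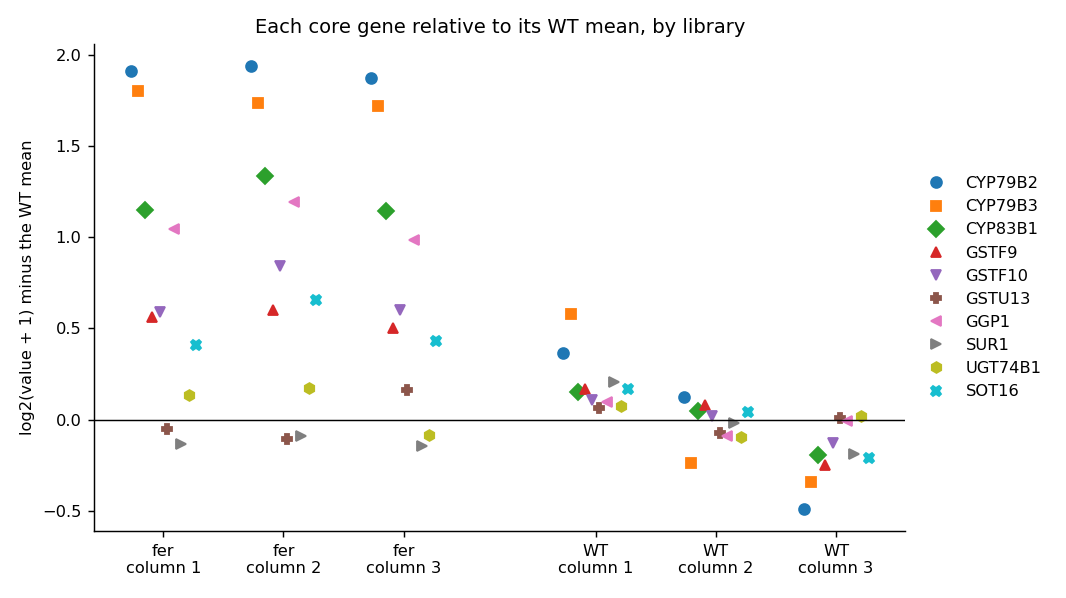
The log2(value + 1) of each core gene minus its own WT mean, for the 3 *fer* libraries and the 3 WT libraries, with 1 symbol per gene and symbols spread sideways only for legibility. In *fer* the genes fan out from CYP79B2 and CYP79B3 at the top to GSTU13, UGT74B1 and SUR1 around 0, and in WT column 1 every gene lies above 0.

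The aliphatic branch offered a comparison at matched steps, because it performs the same reactions on methionine-derived substrates with related enzymes. The 8 core enzymes listed for it leave out GGP1 and SUR1, which serve both branches and of which GGP1 was called higher. Of these 8, 0 were called higher and 2 were called lower in *fer*, with a median log2 fold change of -0.09, or 0.021 without WT column 1. CYP79F1, the aliphatic counterpart of CYP79B2, averaged 1539 ± 47.9 normalized reads in *fer* and 1499 in WT. The log2 ratio of CYP79B2 over CYP79F1 was -0.82 in *fer* and -2.69 in WT, a difference of 1.87 ± 0.20 (SE). At step 2 the log2 ratio of CYP83B1 over CYP83A1, the oxidase of the aliphatic branch, was -0.21 in *fer* and -1.53 in WT, a difference of 1.31 ± 0.11 (SE). CYP79B2 and CYP83B1, each taken alone, therefore came closer to the level of their aliphatic counterparts in *fer* without reaching it on average. CYP79B2 and CYP79B3 together averaged 1836 normalized reads in *fer* and 537 in WT, above CYP79F1 in *fer* and below it in WT. CYP79F2, the other aliphatic gene of step 1, averaged 108 in *fer* and 113 in WT. At step 3 the log2 ratio of GSTF9 over GSTF11 was 6.17 in *fer* and 5.51 in WT, a difference of 0.66 ± 0.17 (SE), and GSTF11 lies within AT3G03200, a gene of the opposite strand that was not in the table. The log2 ratio of GSTU13 over GSTU20 was -2.48 in *fer* and -2.75 in WT, a difference of 0.27 ± 0.14 (SE) with overlapping libraries and p = 0.2 in the exact permutation test.

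At step 6, UGT74B1 and its aliphatic relative UGT74C1 stayed within a narrow margin of each other. Their log2 ratio was 0.09 in *fer* and -0.04 in WT, and the difference of 0.13 ± 0.069 (SE) was small although the libraries did not overlap. It was 0.059 without *fer* column 1 and otherwise 0.13 to 0.17 when a library was left out. UGT74C1 overlaps 2 genes of the opposite strand, AT2G08470 and AT2G31800, by 265 and 40 bases. At step 7 the sulfotransferases parted. SOT18, which acts on aliphatic desulfoglucosinolates and whose 3′ end lies 151 bases from that of SOT16 on the other strand, had 428.2, 503.1 and 478.0 normalized reads in *fer*, against 682.4, 570.4 and 565.7 in WT. Its log2 fold change was -0.36 ± 0.10 (SE, adjusted p = 0.018 in limma), and the log2 ratio of SOT16 over SOT18 was 1.88 in *fer* and 1.02 in WT, a difference of 0.86 ± 0.083 (SE). SOT18 lost its call when WT column 1, *fer* column 1 or *fer* column 3 was left out, at adjusted p-values of 0.10, 0.10 and 0.064 in limma, or without the trend, at 0.20. GSTU20, the other gene called lower, had a log2 fold change of -0.27 ± 0.085 (SE, adjusted p = 0.042 in limma). It lost its call when WT column 1, WT column 2, *fer* column 1 or *fer* column 3 was left out, at adjusted p-values of 0.21, 0.12, 0.17 and 0.16 in limma. SOT17, whose log2 fold change of 0.15 was not called, gave a difference of 0.35 ± 0.072 (SE) in its log2 ratio with SOT16. In 6 of the 7 indole and aliphatic pairs every *fer* library had a higher ratio than every WT library. Each of these 6 had p = 0.1 in the exact permutation test, or 0.14 after adjustment over the 10 pairs compared, so no pair can pass a threshold of 0.05 in this design.

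Several genes that feed the pathway were increased as well. Of 11 tryptophan synthesis genes 7 were called higher and 0 lower in *fer*, with a median log2 fold change of 0.66. The count was 5 to 6 when a library was left out, 6 with median of ratios, and 5 higher and 1 lower with quantile normalization. TSB2 and ASB1, tryptophan synthase β and anthranilate synthase β subunit genes, kept their calls in 4 and 7 of 12 alternatives. PAT1, the phosphoribosyltransferase of the second reaction, had a log2 fold change of 1.53, and ASA1, the anthranilate synthase subunit that sets the flux into tryptophan, had 1.29. TSA1, the α subunit of tryptophan synthase, and IGPS, the indole-3-glycerol phosphate synthase before it, had log2 fold changes of 1.16 and 1.12. ASA2, the other anthranilate synthase subunit, had 99.7 ± 16.6 normalized reads in *fer* and 126.2 in WT and was not called, at an adjusted p of 0.14 in limma, but was called lower with quantile normalization, at 0.048. The 11 genes summed to 1959 ± 113 normalized reads in *fer* and 1037 ± 161 in WT (SD, n = 3 each). Among genes that supply glutathione and active sulfate, 3 of 4 were called higher, with a median of 0.50. GSH2, glutathione synthetase, and APK1, an adenosine phosphosulfate kinase, had log2 fold changes of 0.77 and 0.60 and lost their calls without the trend, at adjusted p-values of 0.078 and 0.082 in limma. GSH1 was not called, at an adjusted p of 0.052 in limma, but was called when genes with a mean under 5 were dropped, with robust variance and without WT column 1, at 0.049, 0.039 and 0.036. APK2 had 0.40 and lost its call when WT column 2, WT column 3, *fer* column 1 or *fer* column 2 was left out, at adjusted p-values of 0.12, 0.061, 0.069 and 0.059 in limma.

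Downstream of the core, 4 of 9 genes that modify the indole ring were called higher and 0 lower, with a median log2 fold change of 0.99, or 0.62 without WT column 2. The list held both the gene with the largest change of all lists and genes near 0. CYP81F4, the P450 that hydroxylates position 1 of the indole ring, had 2426 ± 178 normalized reads in *fer* and 197.7 in WT, a log2 fold change of 3.79. IGMT5, the methyltransferase acting after it, had a log2 fold change of 2.77, IGMT1 had 1.89 and CYP81F1 had 0.99. IGMT1 lost its call when limma was run without the trend (adjusted p = 0.051), and the count was 3 there and also 3 with a minimum log2 fold change of 1. IGMT5 overlaps AT1G76780 on the opposite strand by 71 bases. IGMT4, the most abundant methyltransferase of the list in WT, had 1539 ± 38.9 normalized reads in *fer* and 1462 in WT. The coding sequences of IGMT1 and IGMT4 share 93.0% of their bases, and 15 and 34 of the 451 windows of 50 bases in the last 500 bases of their transcripts occur elsewhere in the genome, so a part of their reads could not be placed with certainty. The glucosinolate transporters GTR2 and GTR1 were both called higher, at 0.78 and 0.40. GTR1 lost its call when WT column 2, WT column 3, *fer* column 2 or *fer* column 3 was left out, at adjusted p-values of 0.13, 0.18, 0.11 and 0.17 in limma. Of the genes that lead from indole-3-acetaldoxime to camalexin, 1 of 3 was called, CYP71A12, with 45.1 ± 15.9 normalized reads in *fer* and 5.20 in WT. CYP71B15 and CYP71A13 were not called, and CYP71A13 had 17.1 ± 9.09 normalized reads in *fer* and 8.30 in WT. Whether the transcript ends of these genes occur elsewhere in the genome was not examined.

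Among 6 transcription factors known to regulate these genes, 3 were called higher and 1 lower, with a median log2 fold change of 0.69. MYB34, an activator of CYP79B2, CYP79B3 and CYP83B1, had 112 ± 15.8 normalized reads in *fer* and 54.8 in WT, with a log2 fold change of 1.01 ± 0.17 (SE, adjusted p = 0.00030 in limma). MYB51 and MYB122, the other MYB factors of the indole branch, were not called and were low, at 17.8 ± 7.95 and 2.36 ± 2.11 normalized reads in *fer* and 21.1 and 0.52 in WT. The MYC factors, which act together with these MYBs, were split: MYC2 and MYC3 had log2 fold changes of 0.80 and 0.58, and MYC4 had -0.43. MYC4 lost its call when WT column 3 or *fer* column 3 was left out, at adjusted p-values of 0.071 and 0.063 in limma. MYC2 was not called by limma with robust variance estimation, at an adjusted p of 0.087, and MYC2, MYC3 and MYC4 were not called without the trend, at adjusted p-values of 0.11, 0.070 and 0.14 in limma.

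**Figure D4:**
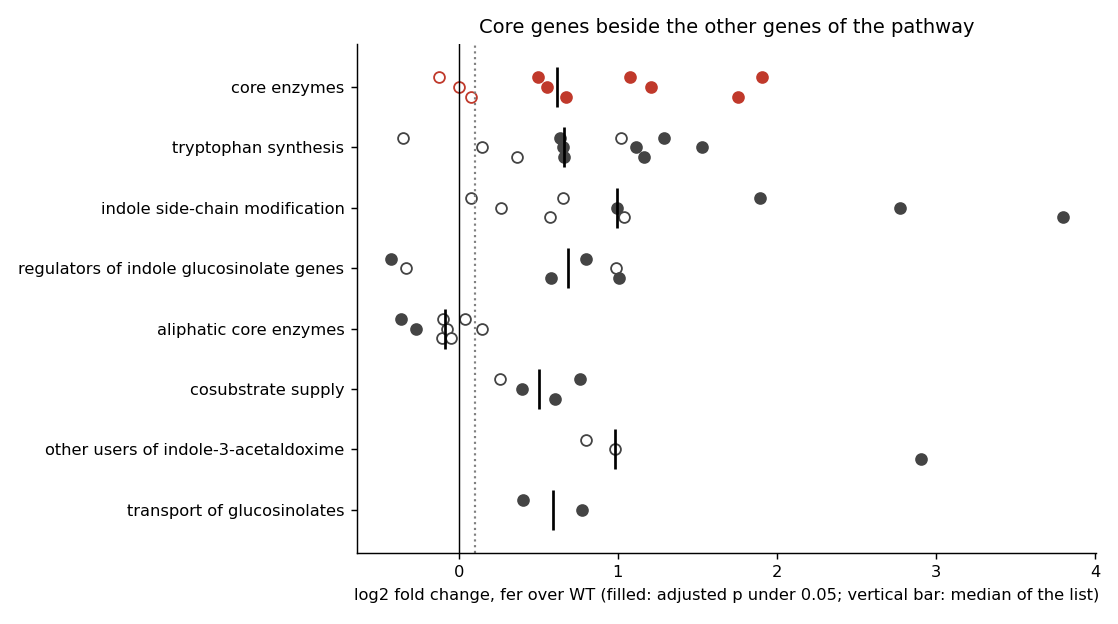
Log2 fold change of *fer* over WT for every gene of the core and of 7 further lists, with filled points for an adjusted p under 0.05 in limma, vertical bars at the median of each list and a dotted line at the median of all genes. The medians lie at 0.62 for the core, 0.66 for tryptophan synthesis, 0.99 for side-chain modification, 0.69 for regulators and -0.09 for the aliphatic core enzymes.

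The letters CACGTG, which MYC factors bind, and AACGTG, a related sequence, were looked for in the 300 bases upstream of each core gene. Both strands were searched, CACGTG reads the same on both, and the motifs cannot overlap in the same 6 bases. The background was the 19933 windows of this length upstream of protein-coding genes of the table. CACGTG was found upstream of 1 of the 10 genes and in 8.1% of these windows, and AACGTG upstream of 5 of the 10 and in 8.6%. Those 5 were CYP83B1 and SOT16, which were called higher, and GSTU13, SUR1 and UGT74B1, which were not called. Neither motif was found upstream of CYP79B2 or CYP79B3. In the same search of related genes, AACGTG was found upstream of GSTF11, SOT17, IGMT2, IGMT3 and IGMT5, and CACGTG upstream of CYP83A1. Neither was found upstream of CYP79F1, GSTU20, UGT74C1, SOT18, IGMT1 or IGMT4. The core gene with CACGTG was SUR1, which was not called. Its upstream window is shown with both matches in capitals, the second as CACGTT, the reverse complement of AACGTG.
SUR1, chr2:8880441-8880740, minus strand: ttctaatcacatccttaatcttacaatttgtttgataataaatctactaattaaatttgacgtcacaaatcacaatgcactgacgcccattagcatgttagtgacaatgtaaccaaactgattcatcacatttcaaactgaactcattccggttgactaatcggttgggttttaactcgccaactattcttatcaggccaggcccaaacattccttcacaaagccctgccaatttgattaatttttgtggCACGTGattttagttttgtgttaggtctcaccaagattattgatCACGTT
They begin 50 and 6 bases before the start of SUR1. A match in these letters is no evidence of binding, and a window without one says nothing of the factor.

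The transcripts whose profile over the 6 libraries was most like that of CYP79B2 were sought among 16035 genes with a mean of at least 10. Likeness was measured as the root mean square difference of log2(value + 1), with each profile centred on its own mean. The 5 closest were AT3G04000, AT2G41380, CDEF1, a cutinase gene, RGL3, a DELLA protein gene, and NAI2, a gene needed for ER bodies, with differences of 0.084, 0.13, 0.13, 0.13 and 0.13 on the log2 scale. NAI2 had 256.6, 213.3 and 228.7 normalized reads in *fer*, against 65.5, 62.4 and 42.3 in WT. CYP79B3 ranked 28 in this order with a difference of 0.20, CYP83B1 ranked 227 and GGP1 ranked 434. GSTF10, GSTF9 and SOT16 ranked 1055, 1343 and 1665, and UGT74B1, GSTU13 and SUR1 ranked 7441, 8941 and 10222. All 6 libraries fall into 2 genotypes, so genes with a change of similar size and a similar spread in WT rank high.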

How the data were processed

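Transcripts of rosette leaves were profiled in 3 *fer* and 3 WT libraries. Per the labels, libraries were made with the QuantSeq 3′ kit, read as single ends of 50 bases in 2 runs each and merged. The submitters' processing notes and the study's methods name STAR, the TAIR10 genome, HTSeq and edgeR. The deposited values are a signal: normalized reads that are named as TMM values and sum to about the same size in each library. The original depth is therefore not known and no counting interval is given. Some values are small fractions, such as 0.0020 for MYB122 in WT column 2. Scaling whole reads by a single factor per library would not give these, and the exact steps that led to the values are not known. Whole reads could not be recovered from these values, and count tests were therefore not used, although the design allowed for them. A deposited log2 fold change column of the authors holds their own comparison and was not used. The table's columns carry the genotype but no replicate number, and columns 1 to 3 of a genotype are named in table order. The labels call the replicates biological but do not say that they came from separate cultures. Permutation p-values rest on the spread between these libraries alone. The p-values and SE from limma use a variance for each gene that is drawn towards that of genes at a similar level. For CYP79B2 the adjusted p in limma was 2.2e-08 with this trend and 0.014 without it. The SE of a difference between log2 ratios uses the libraries alone.

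The log2(value + 1) of all 20754 genes was fitted with limma (version 3.58.1, R version 4.3.3, functions lmFit and eBayes, trend on), two-sided and without covariates, with Benjamini-Hochberg adjustment over all genes, and a gene was called at an adjusted p under 0.05. Single values and log2 ratios of gene pairs were compared with exact permutation tests. Intervals are 95% intervals of the fit. The fit was tested on simulated data. The same values were recomputed with 0.1 as the pseudocount, after dropping genes whose mean was under 5, after rescaling by median of ratios or quantiles, with the trend off or robust variance on, at stricter thresholds and with each library left out. Named genes were the 10 core genes, FER, in each list the called genes with the largest change (at most 4), the genes of the pairs and the 5 genes most like CYP79B2. Genes outside this rule (SWAP70, ASA2, ASB1, TSB2, PAI1, CYP79F2, AT1G76780, IGMT2, IGMT3, IGMT4, GSH1, MYB51, MYB122, CYP71A13, CYP71B15, AT2G08470, AT2G31800 and AT3G03200) were chosen after their values were seen. The members and lists were chosen with earlier results of these data known. Positions and sequences come from the RefSeq genome and annotation of TAIR10.1, whose nuclear chromosomes are those of TAIR10.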

Additional observations from a re-analysis of the deposited data

How the results depend on the processing

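All 7 calls among the core genes remained when the pseudocount was 0.1, when genes with a mean under 5 were dropped, with rescaling by median of ratios or by quantiles, with robust variance, at an adjusted p under 0.01 and when any 1 library was left out. Limma without the trend called 4 of the 10 core genes, all 4 higher in *fer*, and a minimum log2 fold change of 1 also left 4, all 4 higher. The rescalings moved the median of all genes by -0.097 (median of ratios) and -0.14 (quantile normalization). With median of ratios and with quantile normalization the log2 fold changes turned to -0.10 and -0.070 for GSTU13, -0.027 and -0.011 for UGT74B1, -0.061 and -0.024 for CYP79F1 and -0.028 and -0.0018 for IGMT4, and quantile normalization gave -0.052 for PAI1. None of these was called. Leaving out a library gave log2 fold changes of -0.080 to 0.054 for GSTU13, -0.0091 to 0.12 for CYP79F1, -0.19 to 0.055 for GSTF11, -0.23 to 0.070 for CYP79F2 and -0.62 to 0.043 for MYB51, and a median of -0.17 to 0.021 for the aliphatic enzymes. The cause was not tested.

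The count of all called genes was 1130 without the trend (908 higher, 222 lower), 1682 at an adjusted p under 0.01 (1190 higher, 492 lower) and 1144 with a log2 fold change of at least 1 (981 higher, 163 lower). Median of ratios gave 1459 genes lower in *fer*, and quantile normalization gave 1353 higher and 1450 lower. Leaving out a library gave 1907 to 2503 calls, with 1287 to 1822 higher and 537 to 821 lower. Without the trend, 4 tryptophan synthesis genes, 1 regulator and 0 aliphatic, cosubstrate or transport genes were called, and with the minimum log2 fold change these counts were 4, 1 and 0. The aliphatic count was 1 with the pseudocount of 0.1 and 0 at an adjusted p under 0.01, and the transport count was 1 with that pseudocount, with each rescaling and at the stricter adjusted p. Leaving out a library gave 0 to 2 aliphatic and 1 to 2 transport genes. Of the 5 genes most like CYP79B2, 3 stayed among the 5 closest under quantile normalization, a comparison added after seeing the data.

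No paired analysis was possible because the table names no replicate in its columns. Count tests with edgeR and DESeq2 were not run, since whole reads could not be recovered. With 3 libraries a genotype, no single-gene permutation test can reach p = 0.05.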
